A study of Homo sapiens with 2 samples.

Results

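The zinc finger genes of chromosome 19 were taken as all genes with a symbol of the form ZNF, digits and at most 1 further letter whose transcripts lay on that chromosome. Of the 27685 genes listed, 255 met this rule, which was 14.5% of the 1756 listed genes of chromosome 19 and 47.9% of the 532 ZNF symbols of the genome. Of these genes, 244 were annotated as protein coding and 11 as pseudogenes or other transcripts. They lay in 20 groups separated by gaps of more than 500 kb. Of these groups, 10 had at least 5 members and held 241 of the genes; each is called a cluster here and is named by its first and last member.

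The proteins of this family bind DNA through rows of C2H2 zinc fingers, short loops held by a zinc ion, each of which contacts a few bases. Most also carry a KRAB domain, which recruits the corepressor TRIM28 (KAP1) and, through it, the histone H3K9 methyltransferase SETDB1 and HP1 proteins, so that the bound sequence is silenced. The genes arose by repeated tandem duplication, many of their targets are retrotransposons, and TRIM28 and H3K9me3 are also found over the zinc finger genes themselves.

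RNA-seq data were available for 1 library of untreated H2087 cells and 1 library of untreated H596 cells. Both are established human lung cancer cell lines, labelled as lung adenocarcinoma, and both were grown in RPMI medium with fetal bovine serum. Abundance was given for each gene as an estimated read count and as FPKM, fragments per kilobase of transcript scaled to library size. The estimated counts summed to 46961500 in H2087 and 55387847 in H596. With 1 library a line, replicate error is unknown and no test between the lines was made. Intervals below are 95% Wilson intervals, taken from the share of all estimated counts that fell on a gene, and cover counting error only.

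The lines differed widely outside this family. NKX2-1, the transcription factor that marks lung adenocarcinoma, reached 110.0 FPKM in H2087 and 0.508 in H596, and the aspartic protease NAPSA reached 21.9 and 0.0645. These were the 2 of 6 adenocarcinoma markers called in either direction. The surfactant genes SFTPB and SFTPC were at most 0.123 in both lines, KRT7 was 791 and 608, and MUC1 was 86.0 and 102. Of 6 squamous markers, 5 were at least 2-fold higher in H596, with TP63 at 0.183 and 55.2 and KRT13 at 0.281 and 3558. The part of this difference in the values below was not tested. In bulk libraries, fewer cells of a type and less RNA per cell cannot be told apart. The genes are also close copies of each other, so that the division of reads between them is uncertain.

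The contrast that stands out among these genes is between close copies read in both lines and copies without a count in H596. Sequences beside the start sites of both kinds are printed here. The next 7 sequences are RefSeq promoter windows, 5′ to 3′, cut before the first base of the gene as deposited. Capitals mark CG, the dinucleotide that can be methylated, and CCAAT or its reverse complement ATTGG, the letters bound by the activator NF-Y. The first 5 are from the same cluster: ZNF93 (GRCh37, chr19:20011505-20011721, plus strand), ZNF90 (chr19:20188559-20188802, plus strand), ZNF85 (chr19:21105807-21106056, plus strand), ZNF430 (chr19:21203213-21203425, plus strand) and ZNF431 (chr19:21324593-21324812, plus strand). ZNF93, ZNF90 and ZNF85 had 0 counts in H596, and ZNF430 and ZNF431 were higher there than in H2087. The last 2, ZNF135 (chr19:58570357-58570606, plus strand) and ZNF667 (chr19:56988771-56988964, minus strand), also had 0 counts in H596 but are from other clusters and are rich in CG.
ZNF93: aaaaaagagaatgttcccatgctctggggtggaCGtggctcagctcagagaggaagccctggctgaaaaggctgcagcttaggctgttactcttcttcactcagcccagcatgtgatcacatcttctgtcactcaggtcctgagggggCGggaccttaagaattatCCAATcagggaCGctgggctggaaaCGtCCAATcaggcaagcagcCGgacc
ZNF90: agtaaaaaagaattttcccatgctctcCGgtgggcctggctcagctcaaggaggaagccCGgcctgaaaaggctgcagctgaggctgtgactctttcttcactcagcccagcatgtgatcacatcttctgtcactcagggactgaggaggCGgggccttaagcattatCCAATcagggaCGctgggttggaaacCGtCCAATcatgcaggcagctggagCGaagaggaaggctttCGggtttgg
ZNF85: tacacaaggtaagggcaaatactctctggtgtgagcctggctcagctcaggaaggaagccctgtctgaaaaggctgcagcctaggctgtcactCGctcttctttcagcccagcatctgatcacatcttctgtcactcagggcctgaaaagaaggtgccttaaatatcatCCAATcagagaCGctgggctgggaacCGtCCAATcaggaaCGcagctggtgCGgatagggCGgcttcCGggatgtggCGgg
ZNF430: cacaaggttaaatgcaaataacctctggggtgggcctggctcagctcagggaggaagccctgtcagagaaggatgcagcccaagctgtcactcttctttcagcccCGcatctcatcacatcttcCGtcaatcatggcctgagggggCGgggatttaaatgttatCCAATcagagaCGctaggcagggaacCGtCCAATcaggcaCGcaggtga
ZNF431: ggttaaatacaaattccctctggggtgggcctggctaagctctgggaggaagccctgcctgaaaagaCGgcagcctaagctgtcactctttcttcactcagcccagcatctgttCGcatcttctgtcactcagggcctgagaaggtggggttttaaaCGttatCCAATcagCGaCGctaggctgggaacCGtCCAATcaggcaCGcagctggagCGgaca
ZNF135: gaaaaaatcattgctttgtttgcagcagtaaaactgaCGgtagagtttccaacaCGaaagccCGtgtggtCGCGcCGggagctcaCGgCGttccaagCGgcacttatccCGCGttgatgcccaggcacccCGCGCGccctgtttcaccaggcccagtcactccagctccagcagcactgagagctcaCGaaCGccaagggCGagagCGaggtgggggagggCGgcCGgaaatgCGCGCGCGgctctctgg
ZNF667: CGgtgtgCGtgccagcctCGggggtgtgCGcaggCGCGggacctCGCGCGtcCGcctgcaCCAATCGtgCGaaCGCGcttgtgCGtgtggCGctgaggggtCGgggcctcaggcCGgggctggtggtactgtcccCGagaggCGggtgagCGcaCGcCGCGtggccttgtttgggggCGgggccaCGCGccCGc

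In a global alignment, the first 5 windows shared between 66.9% and 80.4% of aligned columns, over 10 pairs. ZNF93, at 0 counts in H596, shared 78.7% with ZNF431, which had an FPKM of 12.4 there. ZNF430 and ZNF431, both read in H596, shared 80.4%. All 5 windows held 2 CCAAT matches and between 5 and 8 CG. ZNF135 held 24 CG in 250 bases and ZNF667 28 in 194 bases. The 11 pairs that included ZNF135 or ZNF667 shared between 42.1% and 47.3%.

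Most of the family was read in both lines at a low level. At an FPKM of at least 1, called on here, 179 of the 255 genes (70.2%) were on in H2087 and 183 (71.8%) in H596, and 150 were on in both. Among all listed genes, 45.3% and 45.5% were on. The median FPKM of the genes on was 2.24 in H2087 and 4.28 in H596, against 9.89 and 11.1 for all genes on. No gene of the family reached an FPKM of 100 in either line, where 704 and 637 of all genes did. Together the 255 genes held 0.209% of the estimated counts in H2087 and 0.387% in H596. In H2087, 7 genes reached an FPKM of 10, and in H596 25 did. Under 0.1 in both lines, called off here, were 11 genes, of which 9 had 0 counts in both. The remaining 74 genes had a value between 0.1 and 1 in at least 1 line.

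ZNF146, whose protein consists of little more than fingers, was the highest in both lines, at 32.4 FPKM (interval 31.6 to 33.3) in H2087 and 52.7 FPKM (51.8 to 53.7) in H596. In H2087 it was followed by ZNF581 (17.5), ZNF787 (17.2), ZNF358 (12.1) and ZNF226 (10.7). In H596 it was followed by ZNF358 (31.3), ZNF580 (28.5), ZNF274 (19.6) and ZNF787 (18.1). ZNF581 and ZNF787 lay near the same level in both lines, at 17.5 and 16.6 for ZNF581 and 17.2 and 18.1 for ZNF787. ZNF580, the neighbour of ZNF581, was 7.35 in H2087 and 28.5 in H596, which was 3.56-fold higher by its share of the counts (3.20 to 3.95). ZNF226 had a match to the KRAB domain, none was found in ZNF146, ZNF581, ZNF787, ZNF358 or ZNF580, and the protein of ZNF274 could not be read from the annotation used.

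**Figure D1:**
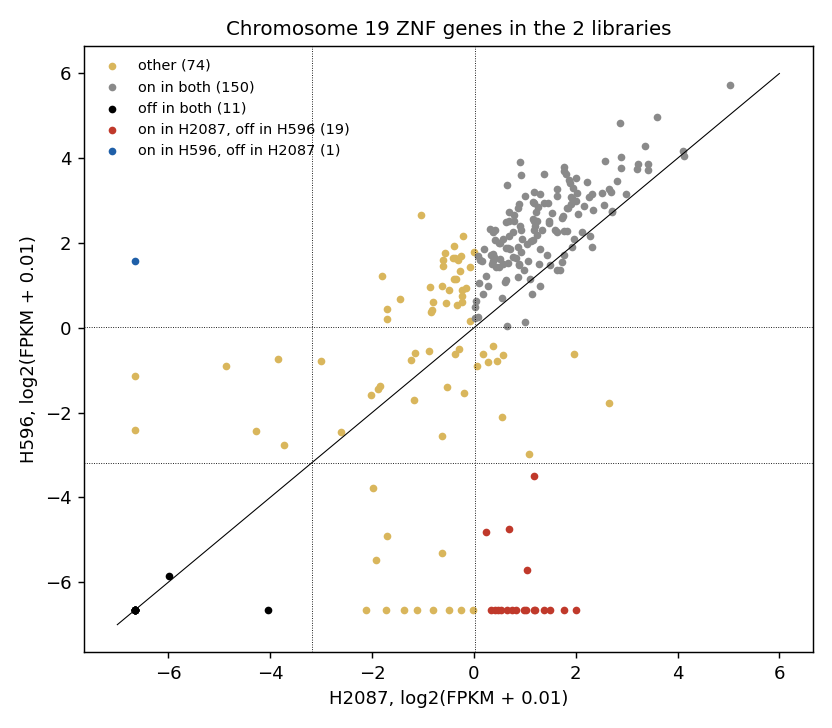
FPKM of the 255 genes in H2087 (x axis) and H596 (y axis), each as log2(FPKM + 0.01), with 1 point per gene, the line of equal values and dotted lines at FPKM 1 and 0.1. The 150 genes on in both (grey) lie mostly above the line, and the 19 genes on in H2087 and off in H596 (red) lie along the lower edge, opposite 1 gene with the reverse pattern (blue).

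A change between on and off was almost one-sided. Of the 212 genes on in at least 1 line, 19 (8.96%) were on in H2087 and off in H596, against 3.59% of all 13793 genes on in at least 1 line. The reverse was found for 1 gene (0.472%), against 2.97% of all genes. Among ZNF genes of other chromosomes, 6 and 4 of 228 (2.63% and 1.75%) changed in these directions, and among the other genes of chromosome 19, 29 and 20 of 781 (3.71% and 2.56%). Low genes cross these thresholds more easily. Among genes on in at least 1 line but under an FPKM of 10 in both, 19 of 187 of the family (10.2%), 6.87% of all genes and 8.71% of the other chromosome 19 genes were on in H2087 only. In the reverse direction the shares were 0.535%, 5.57% and 5.48%.

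Of the 19 genes, 15 had 0 counts in H596 and between 157 and 658 counts in H2087. Taking 3 counts as the most that 0 counts allow, their share of the counts was at least 61.7-fold (ZNF404) to at least 259-fold (ZNF667) higher in H2087. ZNF560 had an FPKM of 4.0 (3.67 to 4.35) from 538 counts in H2087 and 0 counts in H596, a share at least 212-fold higher in H2087. ZNF667 had 3.41 (3.16 to 3.69) from 658 counts and 0 counts. ZNF671, known for promoter methylation in several tumor types, had 2.03 (1.78 to 2.30) from 238 counts and 0 counts. ZNF93, a repressor of LINE-1 retrotransposons, had 2.81 (2.54 to 3.10) from 376 counts and 0 counts. None of these 4 genes had a read in H596, and each had at least 238 in H2087.

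The other genes with 0 counts in H596 were ZNF90, ZNF486, ZNF85, ZNF43, ZNF726, ZNF829, ZNF793, ZNF404, ZNF223, ZNF835 and ZNF135. A few counts were left in H596 for 4 genes. ZNF788, a gene now annotated as a pseudogene, had 377 counts in H2087 and 2 in H596, a share 222-fold higher (61.1 to 1842). ZNF568, whose mouse counterpart represses a placental transcript of Igf2, had 215 and 6 counts, ZNF681 had 497 and 10, and ZNF415 had 269 and 13. The gene with the reverse pattern was ZNF812P, a pseudogene, with 0 counts in H2087 and an FPKM of 2.96 (2.71 to 3.23) from 501 counts in H596.

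Counting genes by their reads gave the same asymmetry without an FPKM threshold, in large part from the same genes. With more than 3 counts in the other line, 24 of the 255 genes had 0 counts in H596 and 3 had 0 counts in H2087. The 24 include the 15 genes at 0 counts described above. Over all 27685 listed genes the numbers were 1159 and 1175, and genes of a like level were not compared in this way. The 3 genes were ZNF812P, ZNF177, with 62 counts and an FPKM of 0.444 in H596, and ZNF534, with 55 counts and 0.177.

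The 19 genes were spread over 8 clusters, and most had no neighbour that met both thresholds. ZNF101 to ZNF254 held 7, ZNF565 to ZNF573 held 3, and ZNF575 to ZNF180, ZNF628 to ZNF835 and ZNF264 to ZNF446 held 2 each. No run of 3 or more neighbours all changed. Next to the 19 genes in order lay 30 other genes of the family. Of these, 22 were on in H596, which is near the share of the whole family (183 of 255, 71.8%). In H596, 3 of the 30 lay between FPKM 0.1 and 1, and 5 were under 0.1. For 13 of the 19, neither neighbour had changed by these thresholds. The other 6 had a neighbour that had changed, where 19 of all 255 genes had. Some neighbours had 0 counts in H596 and missed only the threshold in H2087. Examples are ZNF682, next to ZNF93 and ZNF90 (FPKM 0.699 in H2087), and ZNF471, next to ZNF667 (0.984). ZNF560 (4.0 and 0) lay between ZNF266 (3.85 in H2087 and 9.83 in H596) and ZNF426 (2.16 and 4.16). ZNF404 (1.77 and 0) lay between ZNF283 (1.42 and 3.08) and ZNF45 (1.83 and 7.55). In both places the flanking genes were higher in H596, where the gene between them had no read.

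Transcript starts on opposite strands within 1 kb of each other were then looked up, since such pairs can share a promoter. Of 30 such pairs with at least 1 gene of the family, 3 held a gene that was on in H2087 and off in H596, and in these 3 the partner was low or absent in H596 too. ZNF829 (302 and 0 counts) and ZNF568 (215 and 6 counts) start 38 bases apart. ZNF667 (658 and 0 counts) and the noncoding ZNF667-AS1 (631 and 0 counts) start 473 bases apart, and ZNF793 (451 and 0 counts) and ZNF793-AS1 (26 and 0 counts) 148 bases apart. Around ZNF667 the absence of reads extended further. Between ZNF583 (FPKM 1.10 and 2.97) and ZNF470 (1.03 and 0.528), the listed genes in order were ZNF667, ZNF667-AS1, ZNF471 (297 and 0 counts) and ZFP28 (403 and 0 counts), so that 4 successive genes had 0 counts in H596.

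Among the genes read in both lines the difference ran the other way. H596 minus H2087 differences of log2(FPKM + 1) were taken for 192 genes whose mean FPKM reached 1, and 63 genes fell under this filter. Of the 192, 64 (33.3%) were at least 2-fold higher in H596, against 18.2% of all 13048 genes that passed, and 12 (6.25%) were at least 2-fold higher in H2087, against 14.2%. Of the 192 differences, 165 (85.9%) were above 0. This share was 55.2% over all genes, 69.6% over ZNF genes of other chromosomes and 67.1% over the other genes of chromosome 19. The median difference of the family was 0.76. It was 0.12 over all genes, 0.37 over ZNF genes of other chromosomes and 0.42 over the other genes of chromosome 19. Relative to the median of all genes, the median of the family was 0.64, or 0.66 with TMM scaling. The calls were 53 and 13 with TMM scaling and 50 and 12 after centring on the median of all genes. Of the 192 genes, 42 were on in only 1 line.

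Restricted to the 150 genes on in both lines, the median difference was 0.78, and 137 were higher in H596. Among all genes on in both lines, 6292 of 11349 were higher in H596, and among ZNF genes of other chromosomes 143 of 198 were. Of the 12 genes higher in H2087, 9 were off in H596. The other 3 were ZNF114, ZNF626 and ZNF418. ZNF114 had the largest difference towards H2087, falling from 6.28 FPKM (5.84 to 6.74) in H2087 to 0.285 FPKM (0.210 to 0.386) in H596. ZNF418 had 2.10 (1.89 to 2.32) and 0.117 (0.0796 to 0.171). A further 10 genes that were on in H2087 and off in H596 fell under the filter, so that they are not among the 12.

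The largest difference towards H596 was that of ZNF888, at 1.87 FPKM (1.64 to 2.13) in H2087 and 15.0 FPKM (14.4 to 15.6) in H596. Its share of the counts was 8.04-fold higher in H596 (7.0 to 9.27). It was followed by ZNF836 (0.478 and 6.34), ZNF480 (1.89 and 12.1), ZNF446 (1.56 and 10.4), ZNF812P, ZNF431 (2.57 and 12.4), ZNF580, ZNF766 (3.40 and 13.9), ZNF528 (1.99 and 8.58) and ZNF134 (3.42 and 13.0). ZNF888, ZNF836, ZNF480, ZNF766 and ZNF528 are from the same cluster, ZNF175 to ZNF331. ZNF836 had the highest ratio of shares among them, 13.2-fold (10.5 to 16.8).

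**Figure D2:**
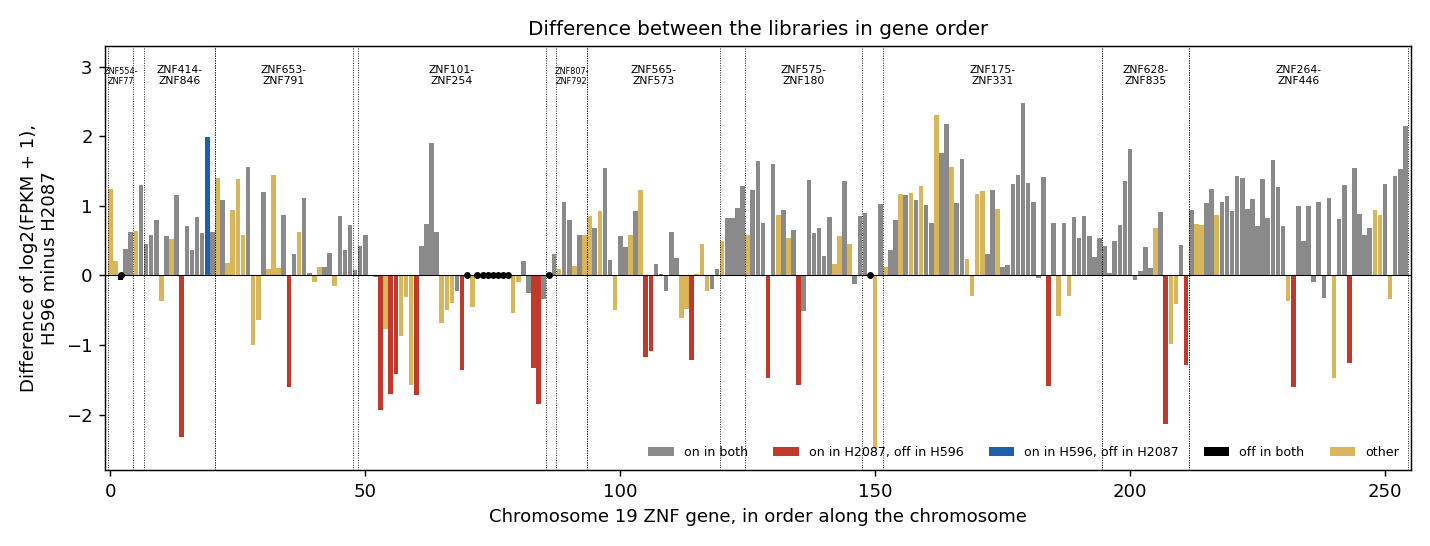
H596 minus H2087 difference of log2(FPKM + 1) for the 255 genes in their order along the chromosome, with 1 bar per gene and dotted lines at the ends of the 10 clusters with at least 5 members. Genes on in both lines (grey) are above 0 in 137 of 150 cases, against 6292 of 11349 over all listed genes on in both. Genes on in H2087 and off in H596 (red) reach below 0 in 8 of the clusters, with 7 of 19 in ZNF101 to ZNF254. Black dots mark genes off in both.

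The clusters did not share 1 median. Medians and calls cover only genes whose mean FPKM reached 1, given in parentheses beside the size of the cluster. The ZNF175 to ZNF331 cluster (39 of 43 genes) had a median difference of 1.05 and 21 genes at least 2-fold higher in H596. ZNF264 to ZNF446 (38 of 43 genes) had a median of 1.0 and 19 such genes. In ZNF653 to ZNF791 (18 of 27 genes) the median was 0.86, and in ZNF575 to ZNF180 (17 of 23 genes) it was 0.76. It was 0.69 in ZNF807 to ZNF792 (4 of 6 genes), 0.62 in ZNF554 to ZNF77 (3 of 5 genes) and 0.61 in ZNF414 to ZNF846 (12 of 14 genes). ZNF565 to ZNF573 (18 of 26 genes) and ZNF628 to ZNF835 (14 of 17 genes) both had a median of 0.43. The ZNF101 to ZNF254 cluster (18 of 37 genes) had a median of -0.12, with 1 gene higher in H596 and 5 higher in H2087. The few other genes inside these intervals had medians of 1.65 (4 genes) in ZNF175 to ZNF331, 0.96 (12 genes) in ZNF264 to ZNF446 and 0.10 (2 genes) in ZNF101 to ZNF254. Their median was 0.16 (4 genes) in ZNF653 to ZNF791, 1.13 (7 genes) in ZNF575 to ZNF180 and 0.93 (5 genes) in ZNF565 to ZNF573. It was 0.40 (9 genes) in ZNF628 to ZNF835, 0.81 (3 genes) in ZNF414 to ZNF846 and 0.78 (1 gene) in ZNF807 to ZNF792. The order of these medians thus differed from that of the family.

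**Figure D3:**
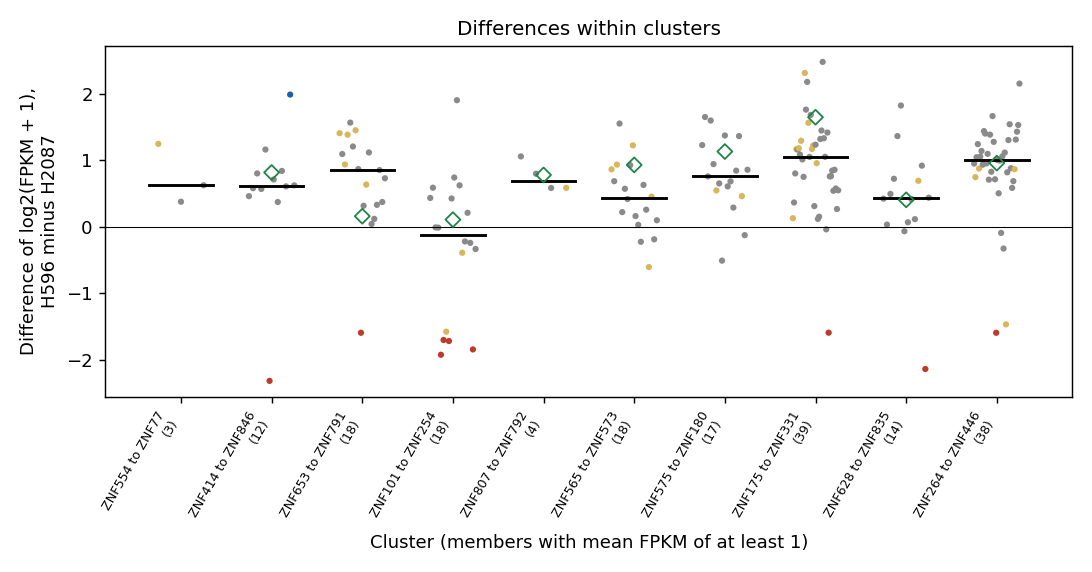
H596 minus H2087 difference of log2(FPKM + 1) by cluster, for genes whose mean FPKM reached 1 (number in parentheses). Points are genes, colored as in the plot of the differences in gene order and spread sideways only to separate them, black lines are medians, and green diamonds are medians of the other genes inside the same interval; the median is below 0 in ZNF101 to ZNF254 alone.

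The ZNF101 to ZNF254 cluster, on the short arm next to the centromere, extends from position 19778962 to 24312769 and holds ZNF91 and its relatives. In H2087 22 of its 37 genes were on and in H596 12 were. Of the 37, 8 had 0 counts in both lines, and a further 10 had 0 counts in H596 only. Genes that were on and genes without reads alternated in blocks. ZNF101, ZNF14, ZNF506 and ZNF253 at its start were on in both lines, with an FPKM between 1.20 and 3.81 in H2087 and between 1.96 and 3.76 in H596.

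The next 5 genes, ZNF93, ZNF682, ZNF90, ZNF486 and ZNF826P, all had 0 counts in H596, over 596.1 kb. In H2087 they had 376, 108, 407, 311 and 26 counts. They were followed by ZNF737 (102 and 6 counts), ZNF626 (FPKM 3.90 in H2087 and 0.640 in H596) and ZNF85 (222 and 0 counts), so that 8 neighbours from ZNF93 to ZNF85 were under an FPKM of 1 in H596. In H2087 ZNF682 (0.699), ZNF826P (0.830) and ZNF737 (0.253) were also under 1, and the other 5 were on.

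The block that followed was higher in H596. ZNF430 had 2.44 FPKM (2.22 to 2.67) in H2087 and 3.61 FPKM (3.37 to 3.87) in H596, ZNF714 had 2.34 and 4.57, ZNF431 had 2.57 (2.38 to 2.79) and 12.4 (11.98 to 12.7), and ZNF708 had 1.41 and 2.70. ZNF431 was the only gene of the cluster at least 2-fold higher in H596. From ZNF738 to ZNF429 the values were again lower in H596, with 357 and 11 counts for ZNF738, 1.21 and 0.558 FPKM for ZNF493 and 1.28 and 0.740 FPKM for ZNF429.

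From ZNF43 on, 12 neighbours were under an FPKM of 1 in H596 over 1445 kb, and the 11 from ZNF208 to ZNF724 were under 1 in H2087 as well. ZNF43 itself had 425 counts in H2087 and 0 in H596. Inside this stretch lay the longest run of genes without a read in either line, the 7 genes from ZNF676 to ZNF728, over 824 kb. The other gene of the cluster at 0 in both lines was ZNF208, which has 36 fingers, the highest number found in the family. ZNF724 had 22 and 23 counts, so that the stretch ended with a gene read at the same low level in both lines.

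At the end of the cluster ZNF91, a repressor of SVA and LINE-1 retrotransposons with 31 fingers, had 2.71 FPKM (2.52 to 2.92) in H2087 and 3.29 FPKM (3.09 to 3.49) in H596. ZNF675 had 3.22 and 2.56, ZNF681 had 1.59 and 0.0271, ZNF726 had 2.60 and 0, and ZNF254 had 4.97 and 3.73. ZNF681 and ZNF726 are neighbours and were on in H2087 only, between 2 genes that were on in both lines.

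**Figure D4:**
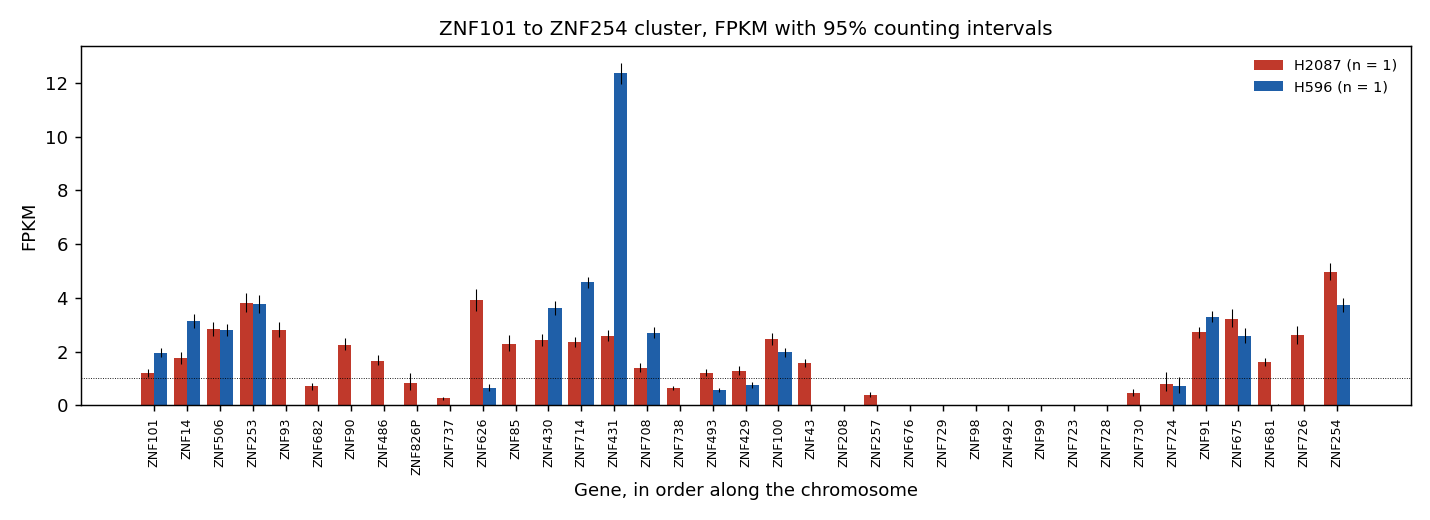
FPKM of the 37 genes of the ZNF101 to ZNF254 cluster in H2087 (red) and H596 (blue), 1 library each, in order along the chromosome; error bars are 95% Wilson intervals that cover counting error only, and the dotted line is an FPKM of 1. Blue bars are missing from ZNF93 to ZNF826P, where red bars stand between 0.699 and 2.81, both colors are missing from ZNF676 to ZNF728, and ZNF431 stands at 12.4 in H596.

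The ZNF175 to ZNF331 cluster showed the opposite pattern. From ZNF175 to ZNF528, 16 neighbours were on in H596. In this stretch ZNF613, ZNF350, ZNF615, ZNF614, ZNF432 and ZNF841 were all at least 2-fold higher in H596, with differences between 1.01 and 1.29, over 168 kb. ZNF350 (ZBRK1), a repressor that binds BRCA1, had 1.33 FPKM (1.13 to 1.56) in H2087 and 4.19 FPKM (3.86 to 4.56) in H596. ZNF613 had 0.992 and 3.47, ZNF615 had 0.650 and 2.74, ZNF614 had 1.595 and 4.5, ZNF432 had 0.645 and 3.03, and ZNF841 had 2.34 and 5.73. After ZNF616 (1.28 and 2.82), whose difference of 0.75 fell short of the limit, 6 more neighbours followed, ZNF836, ZNF766, ZNF480, ZNF610, ZNF880 and ZNF528. Their differences lay between 1.05 and 2.31 over 264 kb. ZNF610 had 0.855 and 4.47 and ZNF880 had 1.40 and 3.97.

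Another run of 5 in the same cluster, from ZNF468 to ZNF816, contained ZNF888. ZNF468 had an FPKM of 4.01 and 11.5, ZNF320 had 1.71 and 6.37, ZNF321P had 1.3 and 4.77, and ZNF816 had 1.42 and 4.01. ZNF321P and ZNF816 overlap a readthrough transcript on the same strand, so that their reads cannot be fully told apart. ZNF415, 2 genes after ZNF702P, was the 1 gene of the cluster that was on in H2087 and off in H596, with 2.26 (2.01 to 2.55) in H2087 and 0.0787 (0.0460 to 0.135) in H596. Runs of at least 3 neighbours that were 2-fold higher in H596 numbered 4 over the whole chromosome, and there were 0 such runs towards H2087. These 2 numbers cannot be compared, because a gene under the mean FPKM filter ends a run. Of the 19 genes on in H2087 and off in H596, 10 fell under it. The 5 neighbours from ZNF93 to ZNF826P, all at 0 counts in H596, therefore made no run.

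In the ZNF264 to ZNF446 cluster, at the end of the long arm, 19 neighbours from ZNF264 to ZNF551 were on in H596, the longest run of this kind, and each of the 19 was higher there. ZNF134 had 3.42 FPKM (3.19 to 3.66) in H2087 and 13.0 FPKM (12.6 to 13.4) in H596. The 2 genes next in order, ZNF154 (98 and 0 counts) and ZNF671 (238 and 0 counts), had no read in H596. In H2087 the longest run of genes on began with ZNF671 and extended over 16 genes to ZNF8, of which ZNF671, ZNF418 and ZNF135 were under 1 in H596. ZNF135 (1.38 and 0) lay between ZNF606 (1.72 and 5.72) and ZNF329 (2.44 and 8.99). The last 3 genes of the family on the chromosome, ZNF324B, ZNF324 and ZNF446, formed another run higher in H596, with 1.24 and 5.02, 1.81 and 7.10, and 1.56 and 10.4.

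Genes with a known role went in both directions. ZNF274, which brings SETDB1 to the 3′ ends of zinc finger genes and so acts on this family itself, had 10.2 FPKM (9.71 to 10.8) in H2087 and 19.6 FPKM (18.98 to 20.3) in H596. ZNF808, a repressor of retrotransposons required for pancreas development, had 0.794 and 3.03. ZNF331, an imprinted gene, had 6.30 (5.98 to 6.64) and 9.66 (9.28 to 10.1), on in both lines. ZNF154, ZNF582 and ZNF671 are known for promoter methylation in tumors. ZNF154 was low in H2087 (0.294) and at 0 counts in H596, and ZNF582 had 0.563 in H2087 and 1.52 in H596. ZNF382, a candidate tumor suppressor, had 0.636 and 0.160, and ZNF177 had 0 and 0.444. ZNF671, ZNF93 and ZNF154 were at 0 counts in H596, and ZNF177 was at 0 counts in H2087.

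Of 25 corepressors of KRAB zinc finger proteins and other chromatin regulators, all but ZFP57 were read in both lines, and 24 passed the filter. Of these 24, 3 were at least 2-fold higher in H596, where 18.2% of all genes were, and 1 was higher in H2087, where 14.2% of all genes were. The median difference was 0.08, against 0.12 over all genes. TRIM28, the universal KRAB corepressor, had 117 FPKM in H2087 and 145 FPKM in H596, SETDB1 had 17.4 and 17.1, and the maintenance DNA methyltransferase DNMT1 had 41.7 and 41.8. The 3 higher in H596 were the chromatin remodelers ATRX (4.89 and 13.4) and CHD3 (34.02 and 88.3) and the histone H3.3 chaperone DAXX (16.3 and 36.1). PPHLN1, a subunit of the HUSH silencing complex, was higher in H2087 (39.9 and 17.6). ZFP57, a KRAB zinc finger protein that guards imprints, had 0 counts in both.

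Of 14 genes of the chromosome with symbols beginning ZFP, ZSCAN or ZIM, or the symbol PEG3, 5 passed the filter and 1 was called in each direction. They were chosen by symbol alone, whatever the type of zinc finger, and include ZFP36 (28.5 and 20.1). ZFP28 (FPKM 2.11 and 0) and ZFP30 (1.03 and 0.0228) were on in H2087 and off in H596, which is 2 of the 7 that were on in at least 1 line, and 0 of the 7 changed the other way. Over all genes these shares were 3.59% and 2.97%, and 7 genes are too few to read a direction from. ZSCAN22 was higher in H596 (0.502 and 2.63). ZSCAN18, the highest of the genes with a ZSCAN symbol among the 14, had 16.6 and 8.81.

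The promoters of the family were richer in CG than the average promoter, with 1 cluster apart. Windows from 250 bases before to 50 after the start were found for 214 of the 255 genes. Their median ratio of observed to expected CG was 0.77, against 0.58 over all 27305 windows, and 77.1% had a ratio of at least 0.6 with a GC content of at least 50%, against 46.9%. In the ZNF101 to ZNF254 cluster the median ratio was 0.44 (28 windows), and over all genes outside it the median was 0.80 (186 windows). The genes outside it were pooled and are not alike. In ZNF653 to ZNF791 the ratio lay between 0.34 (ZNF69) and 0.93 (ZNF709), with several windows under 0.58. Medians of the single clusters outside ZNF101 to ZNF254 were not compared. Genes on in both lines had a median of 0.80 (130 windows) and genes on in H2087 and off in H596 one of 0.61 (17 windows). Inside that cluster and outside it, this difference was small. In ZNF101 to ZNF254 the medians were 0.47 (10 windows) and 0.42 (7 windows), and outside it 0.80 (120 windows) and 0.80 (10 windows). Genes off in H596 thus included both CG-poor promoters such as those of ZNF93, ZNF90 and ZNF85 and CG-rich ones such as those of ZNF135 and ZNF667 printed above.

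**Figure D5:**
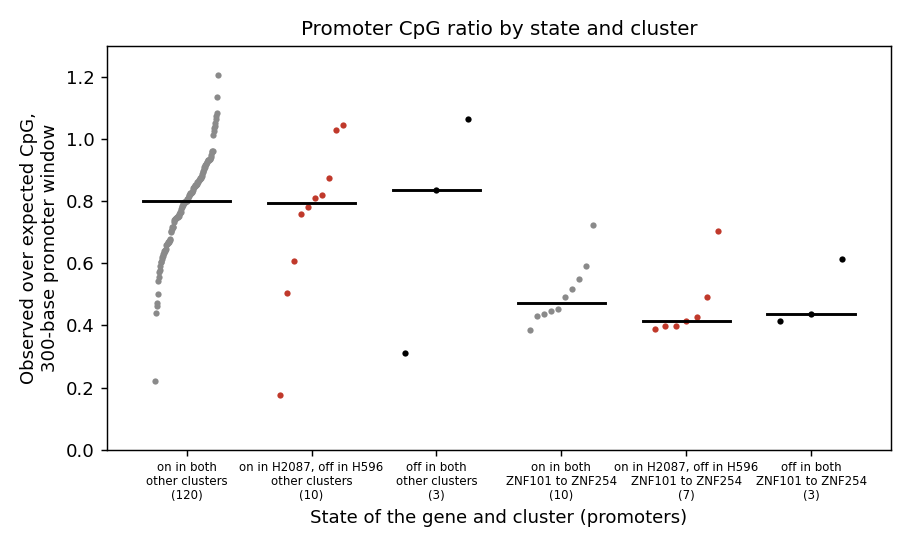
Observed over expected CG in the 300-base promoter window of each gene, by cluster and state (number of windows in parentheses); points are genes, spread sideways in order of their value, and black lines are medians. Other clusters stands for all genes outside ZNF101 to ZNF254. Genes on in both lines and genes on in H2087 only have medians of 0.80 and 0.80 there and of 0.47 and 0.42 in ZNF101 to ZNF254.

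The letters CCAAT, on either strand, occurred in the 250 bases before the start in 33.0% of all 27305 windows and in 50.9% of the 214 windows of the family. In the ZNF101 to ZNF254 cluster, all 28 windows held CCAAT and 19 held at least 2, and outside it 81 of 186 (43.5%) held CCAAT. All 7 genes of that cluster that were on in H2087 and off in H596 held at least 2, and so did 5 of the 10 on in both. Outside the cluster, 0 of 10 and 14 of 120 held at least 2, and 4 of 10 and 54 of 120 held CCAAT at all. With 7 and 10 windows of genes on in H2087 and off in H596, no direction can be read from these counts. CG occurred in 93.6% of all windows and in each window of the family, with a median of 11 over all and 16 in the family.

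Of the proteins, 243 could be read from the annotated coding sequence. The median number of C2H2 fingers was 12, from 1 in ZNF428 to 36 in ZNF208, followed by 34 in ZNF729 and 31 in ZNF91. A KRAB match was found in 206 (84.8%), against 1.91% of 1149 other proteins of the chromosome. Genes on in both lines and genes on in H2087 and off in H596 had a median of 12 and 14 fingers. A KRAB match was found in 117 of 144 (81.2%) and 17 of 18 (94.4%) of them. Genes with a KRAB match had a median of 1.55 FPKM in H2087 and 2.80 FPKM in H596, and genes without one had 2.34 and 6.72. Differences of at least 2-fold towards H596 were found for 48 of 154 genes with a match and 14 of 30 without, and towards H2087 for 11 and 0. The pattern misses divergent KRAB domains and those cut off in the coding sequence used, so that the 37 genes without a match are not all without the domain.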

How the data were processed

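Total RNA of 1 library each of untreated H2087 and H596 cells was prepared with a stranded mRNA kit and sequenced. Per the submitters' processing notes, bcl2fastq 1.8.4, Trimmomatic, HISAT2 2.0.5, StringTie 1.3.3b and the hg19 (GRCh37) build were used. Per the labels and methods, the deposited FPKM values were scaled by StringTie to transcript length and library size. The authors also deposited an estimated count per gene, given as a whole number, and how reads shared between similar genes were divided is not given in the sources used here. The transcript table, also deposited, gave positions. Library totals of 46961500 and 55387847 estimated counts set the precision, described by 95% Wilson intervals that cover counting error only. A gene at 0 counts was set to a floor of 3 counts for a bound on its ratio.

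Genes whose symbol is ZNF, digits and at most 1 letter, on chromosome 19, were taken as the gene family; the members, lists and thresholds were chosen with earlier results of these data known. A gene was called on at an FPKM of at least 1 and off under 0.1. Differences of log2(FPKM + 1), H596 minus H2087, were called at 2-fold (1 on the log2 scale) where the mean FPKM was at least 1. The pseudocount shrinks the differences of low genes. Clusters were split at gaps over 500 kb, and runs needed at least 3 neighbours. With 1 library per line no test was made. The members named are the 10 with the largest differences each way, the 5 highest per library, those in the longest runs of calls, 10 with a known role, and the corepressor and other zinc finger lists; others were chosen after their values were seen, as were the pairs of divergent starts, the interval around ZNF667, the runs of 0 counts and the search for CCAAT.

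Promoters (250 bases before and 50 after the start) were those of RefSeq, GRCh38.p14, placed on GRCh37 by exact match. A protein table had been planned; coding sequences of GENCODE release 44 mapped to GRCh37 were translated instead, and proteins under 100 residues were left out. Patterns of the C2H2 finger and the KRAB A box were counted in them, the second also with a leucine in place of its tryptophan. The intervals, calls and runs were tested on simulated data. The alternatives were other FPKM thresholds, filters, pseudocounts and gaps, TPM, single transcripts, TMM scaling by edgeR 4.0.16 in R 4.3.3, centring, and the exclusion of overlapping genes. Python 3.11.15, numpy 2.4.6, pandas 2.3.3, scipy 1.17.1 and matplotlib 3.10.9 were used.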

Additional observations from a re-analysis of the deposited data

How the results depend on the processing

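The 79 alternative values of the main counts and medians left 66 within 1.5 times (counts) or 10% (medians) of the reported value. The exceptions were as follows. At an FPKM threshold of 2, 100 genes were on in H2087 in place of 179, 9 in place of 19 were on in H2087 and off in H596, and the longest run of genes on in H2087 fell from 16 to 6. At a threshold of 0.5 that run had 25 genes, 3 genes in place of 1 were on in H596 and off in H2087, and 1 run of 3 or more neighbours was on in H2087 and off in H596 in place of 0. Genes at least 2-fold higher in H2087 numbered 23 in place of 12 with a mean FPKM filter of 0.5 or without a filter, and 2 with a filter of 2, while those higher in H596 stayed between 57 and 64. TPM gave 104 and 24 calls in place of 64 and 12, with 3 genes on in H596 and off in H2087. The FPKM values summed to 468270 and 412390, so that TPM raised all values and moved the median difference of all genes to 0.29, against 0.12 as deposited and 0.00 with TMM scaling. Without genes at 0 counts in both lines, the longest run under an FPKM of 1 in H2087 had 4 genes in place of 11. Defining off as 0 counts, chosen after seeing the data, gave 15 and 1 genes in place of 19 and 1. A narrower KRAB pattern, also compared after seeing the data, that requires the tryptophan of the A box, which misses many genes from ZNF45 to ZNF229, matched 187 proteins in place of 206. Of the 41 named genes, 1 changed direction, ZNF581, at 37.4 in H2087 and 40.4 in H596 as TPM. For these genes, TPM or the highest single transcript moved 102 of 164 values beyond the counting interval. TPM multiplies each value by a fixed factor (2.14 in H2087 and 2.42 in H596), and a single transcript cannot exceed its gene. Such moves were thus largely built in and do not measure how stable the values are.

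No paired analysis was possible because H2087 and H596 had 1 library each, and leaving out a replicate was not possible for the same reason. A count of 0 allows a share of up to 0.0639 ppm of the total in H2087 and 0.0542 in H596. The interval of 19 genes in H2087 and 4 in H596 crossed the FPKM threshold of 1, so that their state is not fixed at this depth.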

Other observations

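Transcripts within the family were also compared. Of the 150 genes on in both lines, 102 had more than 1 listed transcript, and for 73 of these the transcript with the highest FPKM was the same in both lines, while for 29 it differed. The deposited values divide the reads of a gene among its transcripts by estimation, and whether this division is stable was not tested.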
